A study of Mus musculus with 2 samples.

Results

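The probes described here are those for the mouse families miR-297, miR-466, miR-467 and miR-669, together with miR-574-5p and miR-1187. They were chosen by name, which gave 73 of the 1040 microRNA (miRNA) probes on the array: 5 for miR-297, 26 for miR-466, 13 for miR-467, 27 for miR-669 and 2 for the added miRNAs. The samples were ureteric bud epithelial cells of E15.5 kidneys, the branching tube of the embryonic kidney that forms the collecting ducts. Both samples carried the same genotype, Rosa26YFP; Hoxb7Cre, in which a Cre recombinase driven by Hoxb7 regulatory sequence turns on a yellow fluorescent reporter in this epithelium, and cells were sorted for that fluorescence. The study has a single group of 2 samples and no control group. The dye was Cy3 for replicate 1 and Cy5 for replicate 2. Sample, array and dye can therefore not be separated.

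Most of these miRNAs belong to a large, rodent-specific cluster of similar hairpins in an intron of Sfmbt2, an imprinted Polycomb gene expressed from the paternal allele and best known for its part in the placenta. The 5′ arms of the hairpins (5p) are rich in alternating U and G, and the 3′ arms (3p) in alternating C and A, so many members resemble simple dinucleotide repeats and each other. Members with the same seed, bases 2 to 8 of the miRNA, are expected by the general rules of miRNA targeting to bind overlapping sets of messages. In mouse cells miR-466l has been described as a stabiliser of Il10 mRNA in macrophages and miR-669a as a repressor of MyoD.

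Sequences are given as the scanner tables list the target of each probe, 5′ to 3′, with the seed in capitals. The first 5 probes were detected in both samples (the rule is given below) and carry most of the results. All have different seeds.
miR-466i-5p: uGUGUGUGugugugugugug
miR-574-5p: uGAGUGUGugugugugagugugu
miR-1187: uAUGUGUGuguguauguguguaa
miR-466h-3p: uACGCACGcacacacacac
miR-669p*: cAUAACAUacacacacacacguau

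The next 9 probes were detected in replicate 1 only, and all of them have a CA repeat. Of these, miR-467b* and miR-467d* share a seed, and the remaining 7 have a seed each.
miR-466f-3p: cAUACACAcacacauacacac
miR-467f: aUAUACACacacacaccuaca
miR-669c*: uACACACAcacacacaaguaaa
miR-467b*: aUAUACAUacacacaccaacac
miR-467d*: aUAUACAUacacacaccuacac
miR-466i-3p: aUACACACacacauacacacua
miR-669a-3p: aCAUAACAuacacacacacguau
miR-669f-3p: cAUAUACAuacacacacacguau
miR-466g: aUACAGACacaugcacacaca

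An asterisk marks the arm that the array's older nomenclature took as the minor one. RefSeq mature sequences of build GRCm38.p6 matched 9 of the 73 targets exactly in name and letters, among them 4 of the probes listed above, none of which lies near Sfmbt2. The miR-574-5p target lies at chr5:64970328-64970350 on the plus strand, within the spans of Fam114a1 and Tlr6. That of miR-467f lies at chr11:69635419-69635439 on the minus strand, within the span of Fxr2. That of miR-1187 lies at chr5:82798964-82798986 on the minus strand, with no other gene spanning it. The fourth, miR-466i-3p, lies at chr13:17747552-17747573 on the plus strand, within the span of Cdk13, and miR-466i-5p is named for the same gene. Only gene spans were used, so exons and introns were not told apart.

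The scan of each sample had 3 repeat spots per miRNA and 560 blank spots, and is called its array here, whether or not the 2 samples shared a chip. Detection in a sample required at least 50% of a probe's spots to exceed the mean plus 3 SD of that array's blank spots. This limit was 303.2 raw intensity units in replicate 1 and 81.1 in replicate 2, over blank means of 203.9 and 58.9. Of 9 markers of ureteric bud epithelium (the miR-200 family, miR-10a, miR-10b, miR-182 and miR-183), 7 were detected in both samples, while miR-200a and miR-141 were not. Of 25 markers of 6 other cell types, including mesenchyme, blood, endothelium and the placental and stem cell clusters, 0 were detected in both samples and 1, miR-214, in replicate 2 only. Below the limit a miRNA was not detectable on these arrays, but it may still have been present. In bulk samples a change in RNA per cell and in the number of cells cannot be told apart.

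Of the 73 probes, 5 were detected in both samples (6.85%), against 5.96% of all 1040 probes, so the family share lay close to that of the array. Counting each replicate by itself, 14 were detected in replicate 1 (19.2%, against 7.88% of all probes) and 5 in replicate 2 (6.85%, against 6.15%). No member was detected in replicate 2 without replicate 1. The 9 detected in replicate 1 only made up 12.3% of the members, against 1.92% of all probes, and 45.0% of the 20 probes of the array with that outcome. The other 59 members were below both limits, at 216.8 to 293.2 units in replicate 1 and 44.2 to 55.4 in replicate 2. Over all 73 members the median raw intensity was 227.8 and 50.8 units, beside 222.9 and 53.1 over all probes. In replicate 2, 64 members lay below the blank mean, as did 894 of the 1040 probes. In replicate 1, 0 members and 26 of the 1040 probes did, so the blanks lay differently against the probes in the 2 samples.

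**Figure D1:**
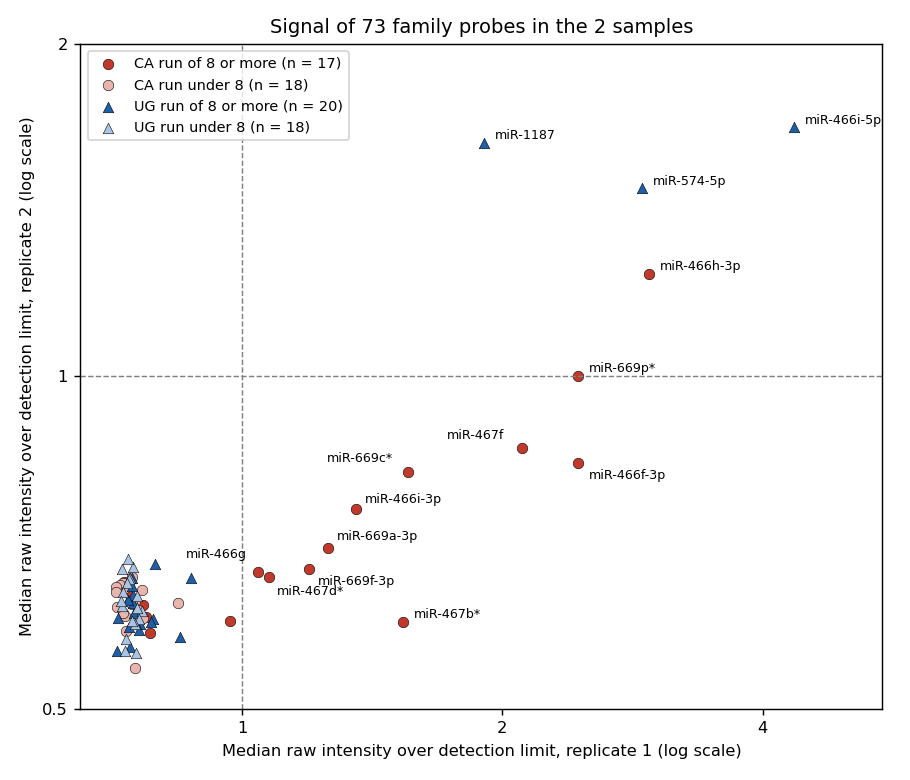
Median raw intensity of each of the 73 probes divided by the detection limit of its array, replicate 1 on the horizontal and replicate 2 on the vertical axis, both on log scales; dashed lines mark the limits and colours the kind and length of the alternating run. The 5 probes beyond both lines are 3 with UG runs and 2 with CA runs, and the 9 beyond the vertical line alone all have CA runs.

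Among the UG-type members, the brightest was miR-466i-5p, whose target is UG repeated over all 20 bases. Its 3 repeat spots reached 1361.4, 1318.4 and 1201.0 units in replicate 1, and in replicate 2 they reached 159.3, 130.6 and 136.4. All of them were above the limits, and the probe ranked 12 of 1040 in replicate 1 and 36 in replicate 2. The normalized log2 signal was 8.83 ± 0.89 (SD, n = 2), which was 2.57 log2 units over blank and passed limma's treat test for more than a 2-fold excess (adjusted p = 7.34e-06, Benjamini-Hochberg over 1040 probes). That call was lost with median scaling, without normalization and with a 4-fold bound. Under these settings 2, 2 and 13 of all probes passed, against 36 in the test given here. The p-value rests on a variance shared by probes of like signal, not on the SD of this probe.

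The probe for miR-574-5p, a miRNA from its own gene on another chromosome than Sfmbt2, had spots of 978.1, 797.1 and 879.6 units in replicate 1, and of 120.1, 144.5 and 119.8 units in replicate 2. Its log2 signal was 8.29 ± 0.52 (SD, n = 2), or 2.02 over blank, and it was the only other member that passed the treat test (adjusted p = 0.0143). That call was lost without background correction, with cyclic loess, with median scaling, without normalization and with a 4-fold bound. The passing members were thus 2 of 73, against 3.46% of all probes. Its opposite arm, miR-574-3p, a probe outside the families, gave 289.1 and 57.1 units and was below both limits, though at 0.953 times that of replicate 1.

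The spots of miR-1187 were at 574.1, 651.6 and 577.7 units in replicate 1, with 117.5, 132.0 and 135.5 for replicate 2, all above the limits. Its log2 signal of 8.02 ± 0.14 (SD, n = 2) had the smallest SD of the 5 detected members, at 1.76 over blank, and did not pass the treat test (adjusted p = 0.172).

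Both CA-type members detected in the 2 samples are encoded within the span of Sfmbt2. For miR-466h-3p the spots were at 990.1, 896.5 and 861.4 units in replicate 1, with 118.8, 85.5 and 100.5 for replicate 2. This was 8.15 ± 0.76 on the log2 scale (SD, n = 2), or 1.88 over blank (treat test, adjusted p = 0.0554). The opposite arm, miR-466h-5p, was at 228.9 and 51.3 units, below both limits.

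For miR-669p* the spots of replicate 1 were close together, at 741.2, 727.9 and 747.8 units, while those of replicate 2 were 71.9, 83.0 and 81.3. Its median in replicate 2 was 1.002 times the limit, with 2 of 3 spots above it, so this call rests on the smallest margin of the 5. It did not pass the treat test, at 1.49 log2 units over blank (adjusted p = 0.999999, unadjusted p = 0.0551).

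**Figure D2:**
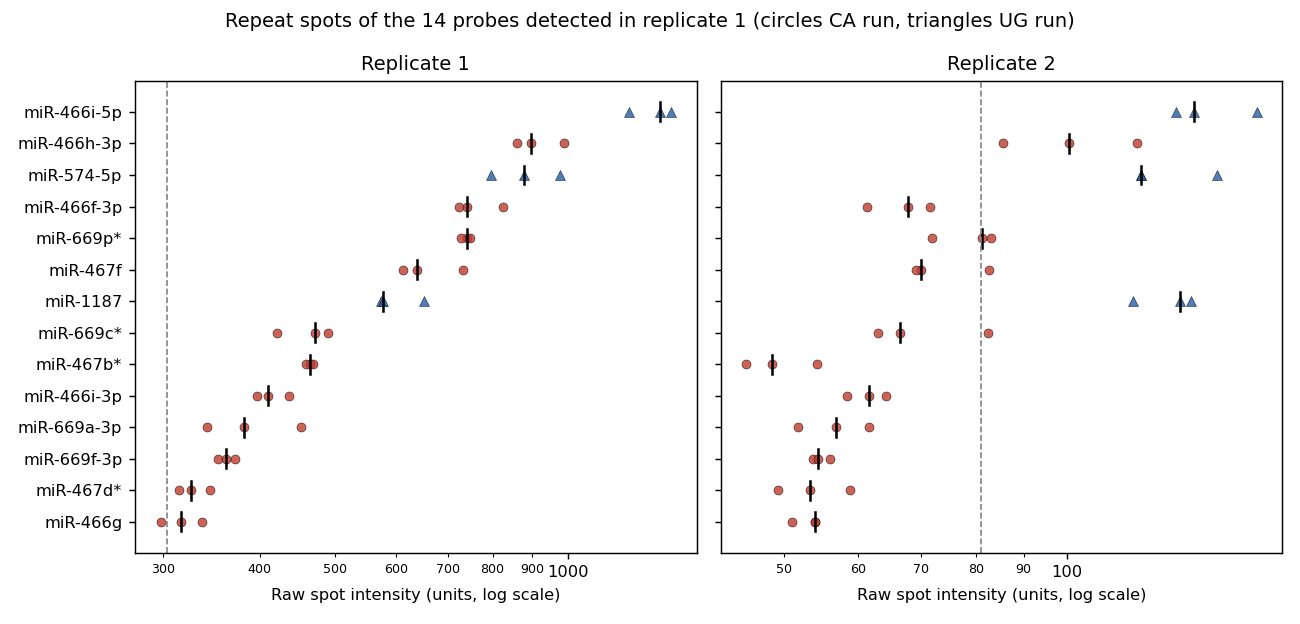
Raw intensity of the 3 repeat spots, on a log scale, for the 14 probes detected in replicate 1, with the median as a black bar and the detection limit of each array as a dashed line. In replicate 1 every spot except 1 of miR-466g lies above the limit, whereas in replicate 2 only miR-466i-5p, miR-574-5p, miR-1187 and miR-466h-3p have all 3 spots above it.

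The 9 members detected in replicate 1 only fell into 2 ranges in replicate 2. The probes for miR-467f (639.4 and 69.9 units), miR-466f-3p (742.4 and 67.7), miR-669c* (471.5 and 66.4) and miR-466i-3p (410.5 and 61.6) stayed above the blank mean of replicate 2 and above all 59 members that were detected in neither sample. In that order they ranked 40, 34, 49 and 59 of 1040 in replicate 1, and 78, 81, 86 and 109 of 1040 in replicate 2. Single spots of miR-467f (82.7 units) and miR-669c* (82.4) exceeded the limit of replicate 2. The other 5 were at 48.6 to 56.8 units there, within or near the range of the undetected members. For miR-467b* the contrast was widest, since its spots of 464.9, 458.6 and 469.1 units ranked 50 in replicate 1, while 54.2, 45.6 and 48.6 ranked 926 in replicate 2.

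Just inside the limit of replicate 1 were miR-466g at 316.3 units and miR-467d* at 325.9, and just outside it miR-669e* at 293.2 and miR-669c at 264.5. In replicate 2, miR-669p* (81.3) and miR-466h-3p (100.5) were just inside, and miR-467f (69.9) and miR-466f-3p (67.7) just outside. A single blank spot at 916.8 units widened the limit of replicate 1. Without it that limit would be 243.5, and 18 members would pass in replicate 1, the 4 added being miR-669e*, miR-669c, miR-669n (257.1 units) and miR-466m-3p (255.7). The same 5 members would be detected in both samples. The share of all probes passing at that limit was not counted, so these 18 members cannot be set against the array.

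At these limits, all detected members had a long alternating stretch in the target. For each target the longest run of alternating C and A, or of alternating U and G, was counted, with either base first. Of the 37 members with a run of at least 8 bases, 14 were detected in replicate 1 and 5 in both samples, while of the 36 with shorter runs 0 were detected in either. In replicate 1 this 0 became 1 (miR-466m-3p) without the brightest blank spot or with a median-based limit, and 14 with the 95th percentile of blank spots as the limit. With both kinds of run pooled, most members with such a run were still below the limit. Their medians of 239.2 and 51.6 units lay close to the 224.7 and 50.6 of members without one. The CA-type members alone differed from this in replicate 1. There 11 of 17 with such a run were detected, with a median of 362.2 units, against 223.7 for CA-type members without one. Of the UG-type members 3 of 20 were detected, with medians of 228.9 and 224.8 units. In replicate 2 the medians were 54.0 and 50.6 units for the CA type and 50.1 and 50.6 for the UG type. The 36 members without a run of that length reached at most 255.7 units in replicate 1 (miR-466m-3p) and 55.4 in replicate 2.

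The 2 kinds of repeat are given side by side, and the difference between them was not tested. Of the CA-type members, 8 of 8 with a run of 10 or more bases were detected in replicate 1, at 362.2 to 896.5 units, and 3 of 9 with 8 or 9 bases. Of the UG-type members, 3 of 3 with a run of 11 or more were detected, at 577.7 to 1318.4 units, and 0 of 17 with 8 to 10 bases, at 217.1 to 264.5 units. Of these 17, miR-669c and miR-669n would pass without the brightest blank spot. The bounds of 10 and 11 bases are those from which every member of that kind was detected in replicate 1. The full shares above them therefore follow from the cut. The probe for miR-466c-5p, with 10 alternating UG bases, gave 239.2 and 48.9 units. In replicate 2, 2 of the 8 CA-type members with 10 or more bases and 3 of 3 UG-type members with 11 or more were detected, and for both kinds the shortest detected run had 11 bases. There the 3 long UG runs, at 120.1 to 136.4 units, lay above all 8 long CA runs, at 54.3 to 100.5 units. In replicate 1 the same groups overlapped. Signal did not simply increase with length, since miR-669c*, with the longest CA run at 15 bases, was dimmer in replicate 1 than 4 CA members with 11 or 12.

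Across the 35 CA-type members, run length and raw intensity had a Spearman's rho of 0.771 in replicate 1 and 0.579 in replicate 2, and across the 38 UG-type members of 0.425 and 0.151. These values describe probes that share the same 2 samples, related sequence and base composition. GC content, a property not used to choose the members, gave 0.471 and 0.253 for the CA type and 0.241 and -0.12 for the UG type. The part of base composition in the signal was not tested.

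**Figure D3:**
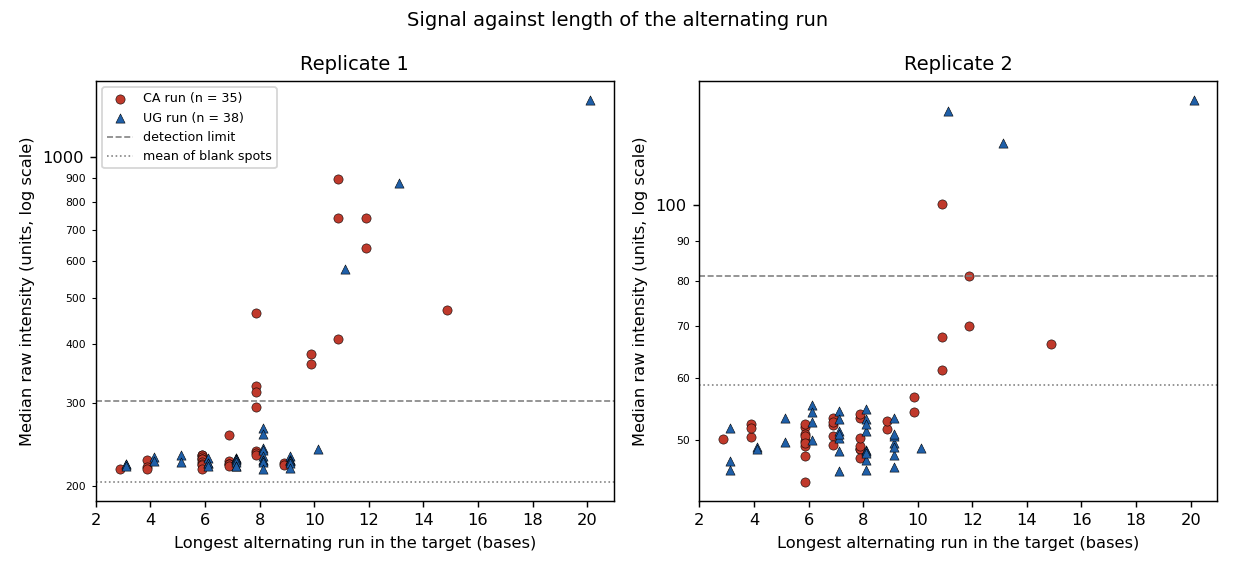
Median raw intensity of each of the 73 probes, on a log scale, against the longest alternating run in its target, for replicate 1 (left) and replicate 2 (right), with circles for CA runs, triangles for UG runs, a dashed line at the detection limit and a dotted line at the mean of the blank spots. In replicate 1, 3 of 9 CA probes with 8 or 9 bases and all 8 with 10 or more lie above the limit, as do the 3 UG probes with 11 or more.

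Outside the families, 4 probes of the array had an alternating run of 8 or more bases, all of the UG kind, and 0 of them were detected. These were miR-3082-5p (289.7 and 54.4 units, 10 bases), miR-32* (224.9 and 52.9, 9 bases), miR-672 (238.5 and 44.7, 8 bases) and miR-3097-5p (233.1 and 58.0, 8 bases). With no run above 10 bases they fall in the range in which no UG-type member was detected at these limits either. Without the brightest blank spot the limit of replicate 1 would be 243.5 units. Then miR-3082-5p would pass in replicate 1, as would the UG-type members miR-669c and miR-669n. The range without a detected UG-type member was read from the members' own values, and the part of run length here was not tested.

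By subfamily, miR-297 had 0 of 5 probes detected in either sample, at 219.0 to 228.9 and 50.1 to 55.4 units, and none of its targets had a run of 8 bases. In replicate 1 the brightest was miR-297c, at 228.9 units, and in replicate 2 miR-297a, at 55.4. The miR-466 family had 5 of 26 detected in replicate 1 and 2 in both, the miR-467 family 3 of 13 and 0, and the miR-669 family 4 of 27 and 1. In the miR-466 family 4 of 4 probes with a CA run of 8 or more were detected in replicate 1, beside 1 of 10 with such a UG run. In the miR-669 family these counts were 4 of 6 and 0 of 8. In the miR-467 family they were 3 of 7 for CA runs, and no UG run reached 8 bases. The brightest undetected probe in replicate 1 was miR-466m-3p in the miR-466 family, miR-467a* (237.3 and 47.5 units) in the miR-467 family and miR-669e* in the miR-669 family.

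Arm and repeat type could not be separated where the name gives the arm, since all 18 probes named 5p were of the UG type and all 15 named 3p of the CA type. Of the 5p probes 2 were detected in replicate 1 and 2 in both samples, and of the 3p probes 5 and 1. Among probes with an asterisk, 4 of 15 were detected in replicate 1, and among those with neither mark 3 of 25. The hairpin of miR-466i was the only one with both arms detected in replicate 1, at 1318.4 units for 5p and 410.5 for 3p.

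The 73 targets had 42 different seeds, of which 27 occurred once, and the 14 members detected in replicate 1 had 13 seeds. Sharing a seed did not mean sharing signal. With miR-466i-5p, miR-466d-5p and miR-466k share the seed GUGUGUG, and these were at 226.3 to 231.0 units in replicate 1. With miR-1187, miR-466a-5p, miR-466e-5p and miR-466p-5p share AUGUGUG and were at 218.1 to 225.1 units. The largest seed group, UAUACAU, had 8 members, of which miR-467b* and miR-467d* were detected in replicate 1 and the other 6 were at 219.0 to 235.0 units.

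Several members have targets that differ at 1 base, and their values are given side by side. The amount of each RNA is unknown, so these values do not measure how well the probes discriminate. Below, capitals mark the longest alternating run.
miR-467f: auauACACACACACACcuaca
miR-467b*: auauacauACACACACcaacac
miR-467d*: auauacauACACACACcuacac
miR-467c*: auauacauACACACACcuauac
miR-467a*: cauauacauACACACACcuaca
miR-669p*: cauaacauACACACACACACguau
miR-669a-3p: acauaacauACACACACACguau
miR-669a-3-3p: acauaacauACACACACAuguau

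Over 21 aligned bases, miR-467f and miR-467d* differ at 1 position (C8U, the base of the first-named miRNA, its position from the 5′ end, then that of the second). The change splits the run of 12 bases and leaves 8, and the signals in replicate 1 were 639.4 and 325.9 units, with no overlap between repeat spots. The same run of 8 bases stands in miR-467b* and in miR-467d*, which differ by A18U, and their signals were 464.9 and 325.9 units, again without overlap. From miR-467d* to miR-467c* the difference is C20U, and the signal of the latter was 232.7 units. The targets of miR-467d* and miR-467a* are identical over 21 bases, shifted by 1, and gave 325.9 and 237.3 units. In the miR-669 family, C19U from miR-669a-3p to miR-669a-3-3p shortens the run from 10 to 9 bases, and the signals were 381.4 and 221.3 units, with spots of 342.4 to 452.3 and 205.5 to 233.1. The longer run of miR-669p*, with 12 bases, gave 741.2 units. In replicate 2 none of these probes except miR-669p* was above the limit.

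Among all 73 targets, 11 pairs of equal length differed at a single base, and 3 of these pairs held a member detected in replicate 1. The high similarity means that 1 RNA species may bind several probes, so signal cannot be assigned to a single member with certainty. How much was shared was not tested. The targets of miR-466f-3p and miR-466i-3p, for example, agree at all 20 aligned bases and gave 742.4 and 410.5 units in replicate 1.

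By gene name, 70 of the 73 probes matched a RefSeq miRNA gene, and 71 genes of the 4 families lie within the span of Sfmbt2 on chromosome 2. Of the 55 probes whose genes all lie there, 8 were detected in replicate 1 and 2 in both samples. Of the 10 whose genes all lie elsewhere, 5 and 3 were. A further 5 probes have genes in both places, of which miR-466f-3p was detected in replicate 1. Among members with a run of 8 or more the counts in replicate 1 were 8 of 25 within Sfmbt2 and 5 of 8 elsewhere. The median run of these members was 8 bases within Sfmbt2 and 11 elsewhere, so location and run length were not separated. Those elsewhere include the added miR-574-5p and miR-1187. The 3 brightest UG-type members and both members that passed the treat test are encoded outside Sfmbt2. The number of genes did not track the signal in single cases, as miR-467a*, with 10 genes, was below the limit while miR-467b* and miR-467d*, with 1 each, were detected in replicate 1. The probe for miR-669a-3p, with 12 genes, gave 381.4 and 56.8 units, and its opposite arm miR-669a-5p 240.5 and 54.9.

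Between the samples, 4 of the 5 members detected in both had a higher normalized signal in replicate 1, beside 20 of all 62 probes detected in both. The differences (replicate 1 minus replicate 2, log2) were 1.25 for miR-466i-5p, 1.07 for miR-466h-3p, 1.03 for miR-669p*, 0.73 for miR-574-5p and -0.20 for miR-1187, whose sign turned with cyclic loess (0.13), with median scaling (0.99) and without normalization (1.69). Their median was 1.03, while that of all 62 probes detected in both samples was -0.20. Of these 5 members, 3 were at least 2-fold higher in replicate 1, and of the 62 probes 4 were (6.45%). With the median blank of each array subtracted and no normalization, the ratios of replicate 1 to replicate 2 were 14.3 for miR-466i-5p, 16.5 for miR-466h-3p, 23.6 for miR-669p*, 10.97 for miR-574-5p and 5.09 for miR-1187. The median over the 62 probes was 3.74 and the range from 0.874 to 23.6, so miR-669p* stood at its upper end. In the authors' deposited table of processed values, miR-466i-5p had 1865 and 698 units, miR-466h-3p 1088 and 400, miR-669p* 750 and 210, miR-574-5p 1106 and 631, and miR-1187 600 and 637. There too, miR-1187 was the only one of the 5 that was not higher in replicate 1. The median ratio of replicate 1 to replicate 2 in those values was 2.67 over the 5 members and 0.849 over the 62 probes. The labels do not say whether the 2 samples shared a chip. Each dye was used for 1 sample, so the differences could not be checked in a replicate and were not tested, and whether they come from the cells, the array or the dye cannot be told apart.

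**Figure D4:**
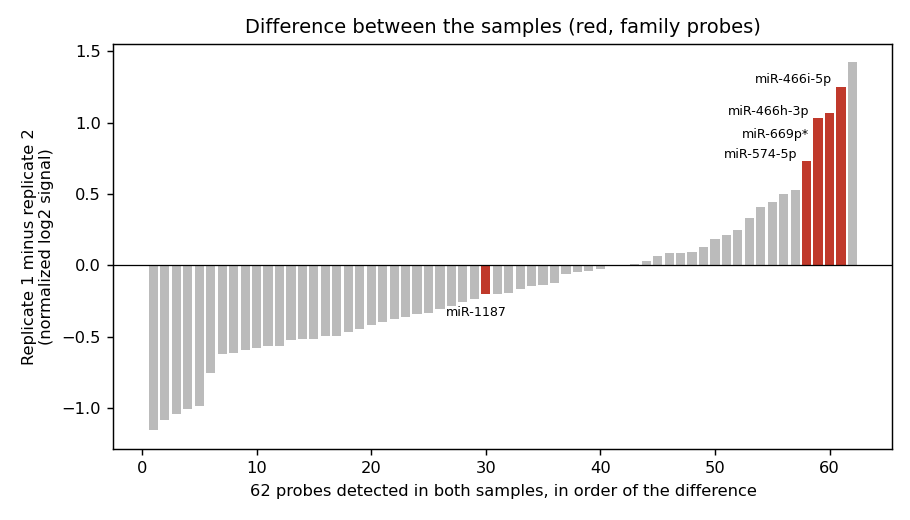
Replicate 1 minus replicate 2 in normalized log2 signal for the 62 probes detected in both samples, in ascending order, with the 5 family probes in red. Of these, 4 are among the 5 highest bars, at 0.73 to 1.25, and miR-1187 is at -0.20, or 0.13 with cyclic loess in place of quantile normalization.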

How the data were processed

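Small RNA (shorter than 300 nt) from 4 µg of total RNA per sample was tailed, tagged and stained by a service provider, per the labels' protocols. The authors deposited the mean intensity of each spot and its SD, per the file headers, neither background-subtracted nor normalized. They also deposited processed linear intensities, with medians of 10 and 9, so background was removed, but how they were rescaled is unknown. Their direction is that of the raw values. Over the 62 detected probes, Pearson's r of log values with blank-subtracted intensities was 0.983 and 0.979. Over all 1040 probes Spearman's rho was lower, at 0.833 and 0.910. No source used here names the scanner.

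Detection used raw intensities. Signal levels used normexp (offset 50), log2, quantile normalization over miRNA spots and the median of repeat spots. limma's treat test (2-fold bound, threshold 0.05) used log2 signal minus blank over all 1040 probes (R 4.3.3, limma 3.58.1, Python 3.11.15). The test used 1 variance for probes of like signal, not each probe's own SD. Members detected in both samples had a median SD of 0.73, against 0.26 over all 62 such probes. The labels name no separate litters, so p-values measure only the pooled spread between these samples. Members, lists and rules were chosen with earlier results of these data known. Named by rule were members detected in any sample, miR-574-5p, miR-1187, opposite arms, members nearest the limits and the brightest undetected ones. Partners by seed or single base, and outside probes with a run, were named after their values were seen. Alternatives changed the limit, spots, run length, members, background correction and normalization.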

Additional observations from a re-analysis of the deposited data

How the results depend on the processing

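The 5 members detected in both samples, all with a run of 8 or more bases, stayed 5 with the 95th percentile of blank spots, with the median-based limit and without the brightest blank spot, and were 4 when every repeat spot had to pass. They became 3 at 6 blank SD, 1 (miR-466i-5p) at 10 blank SD and 3 without miR-574-5p and miR-1187, and ranged from 5 to 14 when 1 replicate was left out. With a run of 12 bases, 3 detected members had one and 2 had not. The 9 detected in replicate 1 only became 39 with the 95th percentile, since that limit (226.1 units) lay within the bulk of the probes. Counts over all probes were not taken at the changed limits, so these member counts cannot be set against the array. The 2 members above blank by the treat test were 1 without miR-574-5p and miR-1187, without background correction and with cyclic loess, 0 without normalization, with median scaling and with a 4-fold bound, 4 over probes detected in at least 1 sample and at an unadjusted p, and 7 with subtraction of the median blank. Of all 1040 probes 36 passed, against 28 without background correction and 29 with cyclic loess. Only 2 passed without normalization, 2 with median scaling and 13 with a 4-fold bound. There were 44 over probes detected in at least 1 sample, 45 at an unadjusted p and 65 with subtraction of the median blank. The cause of these changes was not tested. The median difference between the samples, 1.03, was 2.77 without normalization and 2.08 with median scaling, where all 62 detected probes had medians of 1.43 and 0.74 and all 1040 probes of 0.69 and -0.0037. The difference of miR-1187 turned to 0.13 with cyclic loess, 0.99 with median scaling and 1.69 without normalization. The median signal of members with a run, 0.789 and 0.636 times the limit in replicates 1 and 2, was 2.01 and 0.848 for runs of 10 bases, 2.44 and 1.002 for 12 bases, and 1.17 and 0.877 times the blank mean. For members without a run, 0.741 and 0.624 times the limit were 1.10 and 0.860 times the blank mean. No paired analysis was possible because the study has 1 group. No treat test was possible with 1 sample left.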

Other observations

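The brightest UG-type members below the limit of replicate 1, miR-669c (264.5 and 53.3 units) and miR-669n (257.1 and 47.1), have targets that agree over 20 aligned bases except at 1 (G4U, from miR-669c to miR-669n). They are named for genes in different places, miR-669c within the span of Sfmbt2 and miR-669n at chr3:115979905-115979924 on the plus strand of GRCm38.p6, within the span of Slc30a7. Both would be detected in replicate 1 without the brightest blank spot. In the authors' deposited table miR-669c had 62 and 19 units, and miR-669n 50 and 4. These 2 probes were singled out after their values were seen.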
